A study of Mus musculus with 12 samples.

Results

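The genes described here make up the machinery that copies DNA in S phase. They were taken by name: 41 gene symbols, from the origin licensing factors to the cyclins that start S phase, were looked up in the gene rows of each library. All 41 were found among 32587 rows, and none was listed at 0 in any library. RNA was sequenced from wild-type mouse small-intestinal organoids, which are epithelial cultures grown from intestinal stem cells and which the labels assign to the duodenum. Of 12 libraries, 3 each came from organoids given a bile acid or dimethyl sulfoxide (DMSO), the solvent control. The acids were cholic acid (CA), deoxycholic acid (DCA) and chenodeoxycholic acid (CDCA). All groups shared the wild-type genotype and a commercial growth medium, and the sources used here do not give the strain, sex or age of the mice. The labels put the acids at 50 mmol/L, which is far above usual bile acid doses, so the unit may be wrong. They give 2 days as the treatment in one place and 96 hours of exposure in another. CA and CDCA are primary bile acids made by the liver, and DCA is made from CA by gut bacteria. CDCA and DCA each lack a hydroxyl group that CA carries, at different positions of the steroid ring.

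A cell copies its DNA once per division. In G1, the origin recognition complex, Cdc6 and Cdt1 load the MCM helicase onto origins, and at the start of S phase Cdc45 and GINS switch the helicase on. The sliding clamp PCNA then holds the polymerases on the DNA, and cyclin E and the E2F transcription factors control when this begins. In the intestine the dividing cells lie in the crypts, and their descendants leave the cycle as they move onto the villus. Many genes of this set are known E2F targets and rise together as cells enter S phase.

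Values are transcript abundances (TPM), each a share of each library's total that is corrected for transcript length, so levels can be compared between genes. TPM keeps no read depth, so the depth and the precision of a single value are unknown. The library totals ran from 889156 to 936841 TPM. Summed markers of epithelial cells were at 2099 to 2506 TPM, against at most 6.25 TPM for mesenchymal, 5.46 for immune and 3.57 for endothelial markers. CDCA replicate 3 and DMSO replicate 1 were the lowest libraries of their groups in most of the 41 genes. CDCA replicate 3 was the lowest CDCA library in 40 of the 41 genes and in 48.6% of all tested genes. DMSO replicate 1 was the lowest DMSO library in 38 of the 41 and in 49.1% of tested genes. At the other end, DMSO replicate 3 was the highest DMSO library in 38 of the 41 and in 69.9% of tested genes. CDCA replicate 1 was likewise the highest CDCA library in 34 of the 41 and in 59.5% of tested genes. No fit left those high libraries out together. The counts of genes of the set that passed the limma test were also made without CDCA replicate 3 and DMSO replicate 1. For the lists described with the set this was done only for DCA against DMSO. Because these 2 libraries were picked for being low in these genes, the counts without them are no independent check. The labels do not say whether replicates were separate cultures or animals, so the spread behind each p-value is that of these libraries and may be technical.

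All 41 genes fell under DCA. Summed over the set, the level was 1142, 1395 and 1641 TPM in DMSO replicates 1, 2 and 3 and 619, 624 and 636 TPM in the DCA libraries. It was 1047, 1119 and 1040 TPM in CA and 1398, 1234 and 931 TPM in CDCA. The DCA libraries were the lowest of the 12 and lay close together, at 626 ± 8.56 TPM (SD, n = 3). The DMSO libraries, at 1393 ± 250 TPM (SD, n = 3), and the CDCA libraries, at 1188 ± 237 TPM (SD, n = 3), spread widely and overlapped each other. The CA libraries were at 1068 ± 43.8 TPM (SD, n = 3), all below the lowest DMSO library and within the range of the CDCA libraries.

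**Figure D1:**
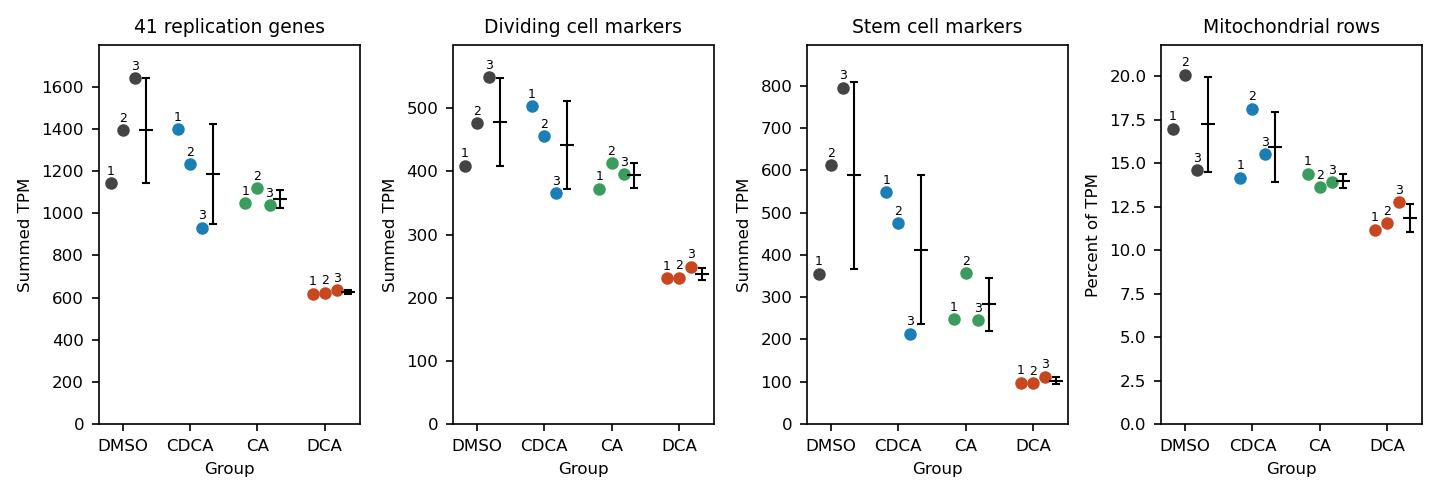
Summed TPM of the 41 replication genes, of 5 dividing cell markers and of 6 stem cell markers, and the percent of TPM in mitochondrial rows, in each library (points, numbered by replicate) with the group mean and SD (bars), by group on the x axis. The DCA libraries sit at 619 to 636 TPM for the replication genes, below all other libraries, and DMSO replicate 1 and CDCA replicate 3 are the lowest of their groups in the first 3 panels.

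Between DCA and DMSO, 41 of 41 genes were called lower at a limma adjusted p under 0.05, where 19.2% of the 11952 tested genes were called lower and 18.8% higher. Differences were taken in log2(TPM + 1), and their median over the set was -1.25, against -0.02 over all tested genes. The adjusted p-values of limma ran from 4.25e-05 for Rfc4 to 0.00953 for Pold2. In 41 of 41 genes the 3 DCA libraries were all below the 3 DMSO libraries, which held for 26.0% of tested genes. The DCA mean was between 22.6% (Orc1) and 68.8% (Pold2) of the DMSO mean, with a median of 39.0%. Without CDCA replicate 3 and DMSO replicate 1, 41 of 41 were again called lower, where 25.0% of tested genes were called lower and 18.2% higher. Statements on which gene differed most or least refer to this scale, which understates the difference of low genes. A fall of at least 1 log2 unit was seen in 30 of the 41 and in 2.83% of tested genes. In whole organoids, fewer cycling cells and less of these RNAs in each cell cannot be told apart.

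**Figure D2:**
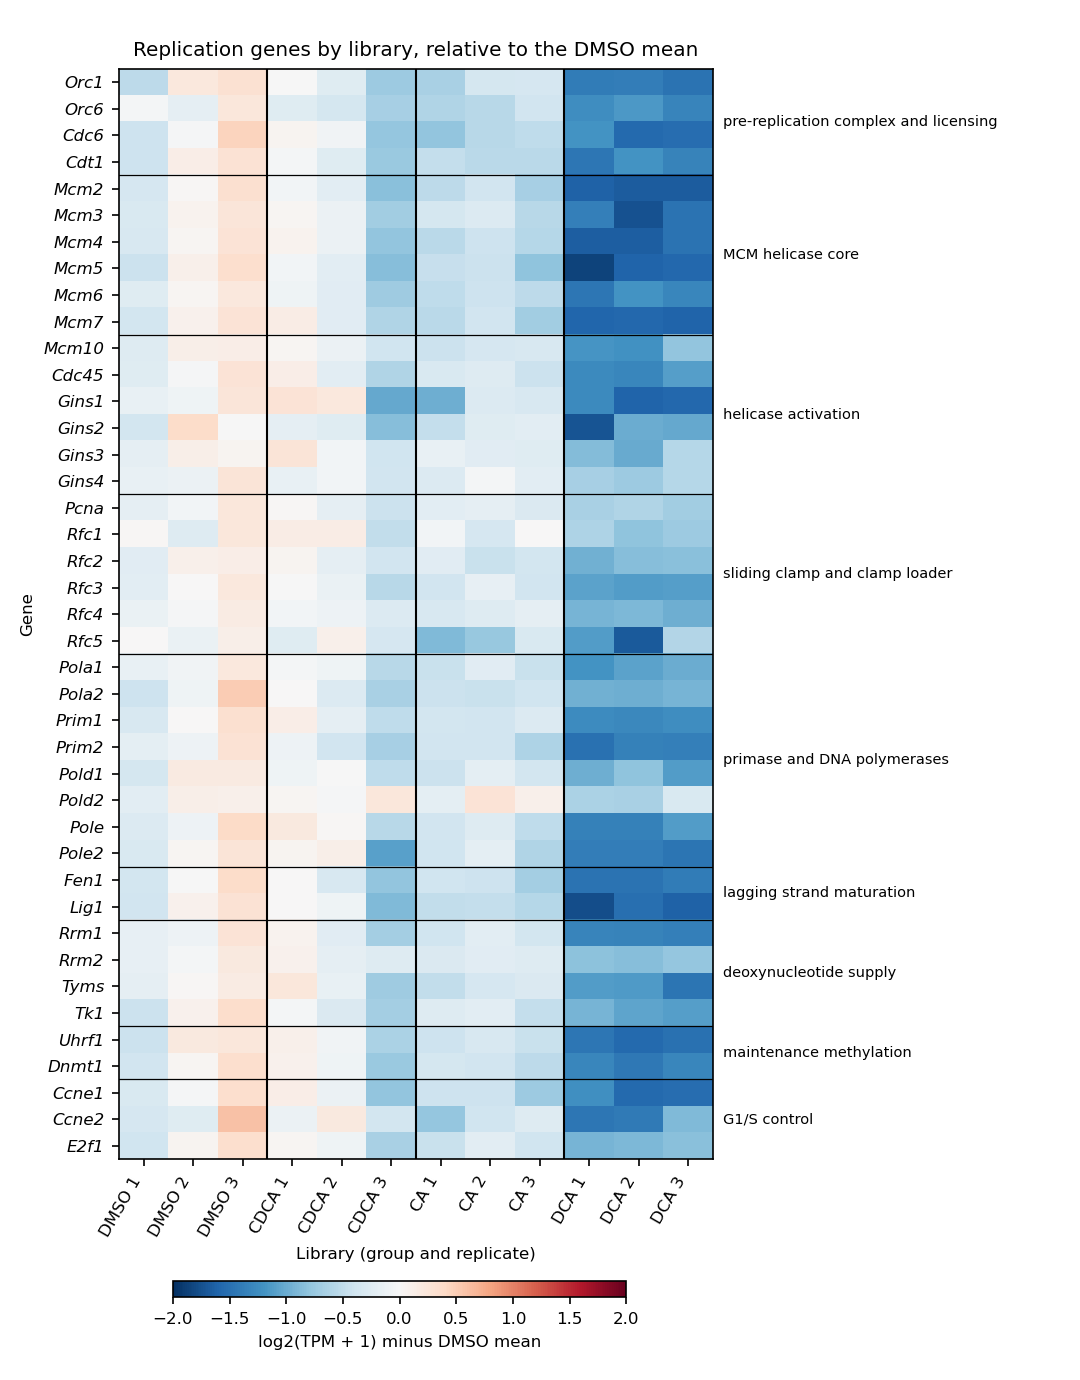
Heatmap of the 41 genes (rows, grouped by role) in the 12 libraries (columns), coloured by log2(TPM + 1) minus the mean of the 3 DMSO libraries of that gene. The 3 DCA columns are blue in every row, the CA columns and CDCA replicate 3 are paler blue in most rows, and DMSO replicate 1 is bluer than the other DMSO libraries in 38 of 41 rows.

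The promoter windows of the set were searched for E2F-like letters. RefSeq windows of 300 bases (GRCm38.p6, 250 before and 50 after the annotated start) were available for 33 of the 41 genes. Both strands were searched for the 8-base words TTTGGCGC, TTTCGCGC, TTTGCCGC and TTTCCCGC, which can overlap each other on opposite strands. Of the 33 genes, 15 (45.5%) had at least 1 match in a window, against 4.82% of 9465 tested genes with windows and 2.61% of all 27025 genes in the table. The CCAAT word was found in 60.6% of the 33 genes, 43.8% of the tested genes and 41.1% of all genes. Under DCA the median difference was -1.40 in the 15 genes with a match and -1.09 in the 18 without. Single genes ran from -1.68 to -0.81 with a match and from -1.65 to -0.53 without, ranges that overlap widely. These values describe genes that share their libraries. Stretches around matches before the start are printed for 5 genes, where no annotated exon of GENCODE M21 overlaps them, on the gene's strand and with the matches in capitals. Cdc6 lies at chr11:98907983-98908050 (+ strand), with its match beginning 138 bases before the start. Mcm5 lies at chr8:75109326-75109397 (+ strand), where a pair of overlapping matches begins 153 and 149 bases before the start. Mcm6 lies at chr1:128359715-128359845 (- strand), with matches 110, 106 and 47 bases before the start. Pola1 lies at chrX:93632256-93632323 (- strand) and Uhrf1 at chr17:56304098-56304165 (+ strand), with matches 138 and 185 bases before their starts. A match is a run of letters and no measured binding.
Cdc6: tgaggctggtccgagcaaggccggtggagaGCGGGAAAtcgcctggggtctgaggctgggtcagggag
Mcm5: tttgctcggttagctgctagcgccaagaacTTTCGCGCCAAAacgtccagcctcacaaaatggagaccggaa
Mcm6: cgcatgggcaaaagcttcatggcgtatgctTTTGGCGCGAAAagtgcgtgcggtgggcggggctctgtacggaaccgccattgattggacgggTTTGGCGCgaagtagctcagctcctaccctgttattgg
Pola1: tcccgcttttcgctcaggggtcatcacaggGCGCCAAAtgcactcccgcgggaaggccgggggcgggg
Uhrf1: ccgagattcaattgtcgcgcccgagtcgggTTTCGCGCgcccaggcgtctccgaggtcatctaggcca

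The licensing factors Orc1, Orc6, Cdc6 and Cdt1 prepare origins in G1, and all 4 fell under DCA, with a median difference of -1.37. Orc6, the smallest subunit of the origin recognition complex, was the most abundant of them. It was at 33.0, 29.8 and 40.0 TPM in the DMSO libraries and at 13.8, 14.9 and 13.1 TPM in DCA. The CA libraries held 22.1, 23.0 and 25.8 TPM and the CDCA libraries 28.6, 26.4 and 21.1 TPM. All 9 acid-treated libraries were below all 3 DMSO libraries, and the DCA libraries were below all others. Orc6 fell by 1.23 under DCA (95% CI -1.51 to -0.96, limma adjusted p = 4.78e-05). Cdc6, the ATPase that helps load the helicase, had the largest difference of the 4 on the log2(TPM + 1) scale, just ahead of Orc1 (-1.43 and -1.42). It was at 5.53, 7.56 and 11.0 TPM in DMSO, 4.09, 4.96 and 5.17 in CA, 8.05, 7.35 and 4.14 in CDCA and 2.82, 1.97 and 2.04 in DCA. CDCA replicates 1 and 2 lay within the DMSO range and CDCA replicate 3 below it, and the DCA libraries overlapped no other. Cdc6, whose promoter stretch is printed above, fell by 1.43 under DCA (95% CI -1.93 to -0.92, limma adjusted p = 0.000588). Cdt1, the partner of Cdc6 in loading, went from 30.2 ± 7.49 to 11.2 ± 1.05 TPM (SD, n = 3). Orc1, the ATPase subunit of the recognition complex, went from 4.65 ± 1.62 to 1.05 ± 0.0672 TPM (SD, n = 3), close to the 1 TPM used as the filter. As a share of the DMSO mean Orc1 was the lowest of all 41 genes, at 22.6%, and with a pseudocount of 0.1 it also led, at -1.98.

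The 6 genes of the MCM helicase core, Mcm2 to Mcm7, encode the ring that unwinds DNA, and as a group they had the largest median difference of the roles, -1.59. Mcm7 was the most abundant, at 57.5, 79.1 and 89.4 TPM in DMSO and 23.9, 24.2 and 23.7 TPM in DCA. It was at 50.5, 56.4 and 45.6 TPM in CA and 82.0, 63.3 and 48.5 TPM in CDCA. The 3 DCA libraries agreed within 1 TPM of each other and lay far below the rest, and the CA libraries were below all DMSO libraries. Mcm7 fell by 1.59 under DCA (95% CI -1.98 to -1.20, limma adjusted p = 7.46e-05). Mcm5 had the largest difference of all 41 genes with a pseudocount of 1, though not with 0.1, where it was at -1.75 and Orc1 at -1.98. It was at 28.8, 42.1 and 50.0 TPM in DMSO, 28.3, 29.1 and 22.1 in CA, 37.7, 34.0 and 21.3 in CDCA and 10.2, 12.2 and 12.5 in DCA. The highest DCA library was below every other library, while CA replicate 2 reached the lowest DMSO library. Mcm5 fell by 1.68 under DCA (95% CI -2.15 to -1.20, limma adjusted p = 0.000168). Mcm6 had the smallest difference of the ring, at 51.7, 62.7 and 71.1 TPM in DMSO, 42.7, 46.0 and 42.5 in CA, 57.7, 52.6 and 37.2 in CDCA and 21.9, 26.1 and 24.3 in DCA. Its DCA libraries again overlapped no other, and it fell by 1.32 (limma adjusted p = 8.08e-05). Mcm2, Mcm3 and Mcm4 had DCA means of 29.4%, 32.7% and 30.2% of DMSO.

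The proportions of the 6 ring subunits were also compared. Of the summed TPM of Mcm2 to Mcm7 over the 12 libraries, Mcm7 made up 25.7% to 29.7%, Mcm6 20.9% to 28.8%, Mcm3 11.9% to 16.2%, Mcm5 11.6% to 15.2% and Mcm2 10.7% to 12.7%, and Mcm4 had the smallest share in every library. In 4 of the 6 the shares in DCA and DMSO overlapped. Mcm6 had a higher share in DCA, with 22.5% ± 1.28 in DMSO and 26.7% ± 1.95 in DCA (SD, n = 3). Its lowest DCA library, at 24.9%, was above the highest DMSO library, at 24.0%. Mcm2 had a lower one, with 12.2% ± 0.436 in DMSO and 11.0% ± 0.494 in DCA (SD, n = 3), and its highest DCA library, at 11.6%, was below the lowest DMSO library, at 11.8%.

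The helicase is switched on by Cdc45, Mcm10 and the 4 GINS subunits, and this group fell with a median difference of -1.14. Gins2 was the most abundant, at 14.6, 25.1 and 19.1 TPM in DMSO, 13.5, 16.0 and 16.4 in CA, 16.8, 16.1 and 10.2 in CDCA and 5.11, 9.17 and 8.88 in DCA. DCA replicate 1 was lower than the other DCA libraries, and CDCA replicate 3 came nearest to the DCA range. Gins2 fell by 1.25 (limma adjusted p = 0.00147). Gins1 had the largest difference of this group. It was at 8.41, 8.78 and 11.3 TPM in DMSO, 4.31, 7.66 and 7.38 in CA, 11.6, 11.1 and 4.14 in CDCA and 3.31, 2.45 and 2.52 in DCA. CA replicate 1 and CDCA replicate 3 were near the DCA libraries, and the other CA and CDCA libraries were well above them. Gins1 fell by 1.48 with a wide interval (95% CI -2.13 to -0.83, limma adjusted p = 0.00229). Gins4 differed least, at 13.3, 13.6 and 18.0 TPM in DMSO, 12.1, 14.4 and 12.7 in CA, 13.3, 14.2 and 11.2 in CDCA and 8.95, 8.58 and 9.70 in DCA. The CA and CDCA libraries overlapped those of DMSO, and the DCA libraries were below all of them. Gins4 fell by 0.65 (limma adjusted p = 0.00169). The DCA means of Mcm10, Cdc45 and Gins3 were 45.2%, 37.3% and 43.0% of DMSO.

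The sliding clamp and its loader had the smallest median difference of the roles, -0.91. Pcna, the clamp that encircles DNA, was the most abundant of the 41 genes. It was at 211, 232 and 282 TPM in DMSO, 206, 212 and 196 in CA, 245, 213 and 178 in CDCA and 153, 157 and 148 in DCA. Even the highest DCA library was below CDCA replicate 3, the lowest of the others. Pcna fell by 0.65 (95% CI -0.90 to -0.39, limma adjusted p = 0.00103), so DCA organoids kept 63.3% of the DMSO level. Rfc5, a small subunit of the clamp loader replication factor C, was at 30.3, 27.4 and 32.8 TPM in DMSO and 13.3, 8.70 and 19.6 TPM in DCA. It was at 15.8, 17.4 and 24.1 TPM in CA and 25.4, 32.3 and 23.7 TPM in CDCA. The DCA libraries were spread and reached into the CA range, while all of them stayed below DMSO. Rfc5 fell by 1.13 (95% CI -1.63 to -0.63, limma adjusted p = 0.00248). Among the other loader subunits, Rfc4 fell by 0.94 with the smallest limma adjusted p of the set (4.25e-05), and Rfc1, Rfc2 and Rfc3 had DCA means of 57.8%, 53.0% and 44.3% of DMSO.

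Primase and the replicative polymerases fell with a median difference of -1.17 over 8 genes. Pold2, an accessory subunit of the lagging strand polymerase delta, was the most abundant and differed least of all 41 genes. It was at 43.9, 54.9 and 54.2 TPM in DMSO, 44.1, 61.7 and 54.7 in CA, 52.2, 49.6 and 59.8 in CDCA and 32.4, 32.1 and 40.8 in DCA. DCA replicate 3 came close to the lowest DMSO library, and CA and CDCA libraries lay on both sides of the DMSO mean. Pold2 fell by 0.53 under DCA (95% CI -0.83 to -0.23, limma adjusted p = 0.00953). Prim2, the large subunit of primase, which makes the RNA primers, differed most. It was at 10.6, 11.4 and 15.3 TPM in DMSO, 9.26, 9.25 and 7.69 in CA, 11.5, 9.19 and 7.38 in CDCA and 3.71, 4.21 and 4.15 in DCA. The DCA libraries were well below all others, and the CA libraries were all below DMSO. Prim2 fell by 1.41 (95% CI -1.75 to -1.07, limma adjusted p = 7.26e-05). The catalytic primase subunit Prim1 had a DCA mean of 39.3% of DMSO, and the polymerase alpha subunits Pola1 and Pola2 had 40.5% and 48.0%. The catalytic subunit of polymerase delta, Pold1, had 49.2%, and the leading strand polymerase genes Pole and Pole2 had 36.6% and 30.0%.

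Fen1 and Lig1, the nuclease that trims Okazaki fragments and the ligase that joins them, both fell, with a median difference of -1.54. Lig1 was at 26.7, 37.4 and 43.1 TPM in DMSO, 24.6, 25.0 and 23.3 in CA, 35.2, 33.1 and 18.6 in CDCA and 9.52, 11.7 and 10.8 in DCA. Fen1 was at 23.2, 30.0 and 39.1 TPM in DMSO, 22.6, 22.4 and 18.5 in CA, 30.2, 23.9 and 16.9 in CDCA and 10.2, 10.2 and 10.8 in DCA. In both genes the CA libraries were all below DMSO, CDCA replicate 3 was below CDCA replicates 1 and 2, and the DCA libraries were below all others. Lig1 fell by 1.63 and Fen1 by 1.45 (limma adjusted p = 0.00016 and 0.000199).

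The 4 genes that supply deoxynucleotides fell with a median difference of -1.13. Tk1, the thymidine kinase of the salvage route, was the most abundant, at 39.8, 57.5 and 69.5 TPM in DMSO, 45.1, 46.6 and 38.5 in CA, 52.7, 44.3 and 33.6 in CDCA and 28.0, 25.6 and 24.8 in DCA. CA replicates 1 and 2 were above DMSO replicate 1, and all DCA libraries were below CDCA replicate 3. Tk1 fell by 1.03 (95% CI -1.43 to -0.62, limma adjusted p = 0.00113). Rrm1 and Rrm2 encode the large and the small subunit of ribonucleotide reductase, which makes deoxynucleotides. Rrm1 was at 46.7, 49.0 and 63.5 TPM in DMSO, 39.7, 45.4 and 40.5 in CA, 55.6, 44.9 and 32.3 in CDCA and 20.5, 20.2 and 19.8 in DCA. Rrm2 was at 44.0, 48.1 and 56.7 TPM in DMSO, 40.3, 41.8 and 41.2 in CA, 52.3, 43.5 and 40.9 in CDCA and 27.5, 26.9 and 28.4 in DCA. The DCA libraries of both genes formed a tight low group. Rrm1 fell by 1.34 and Rrm2 by 0.82 (limma adjusted p = 0.000116 and 0.000156), and their intervals of -1.69 to -0.99 and -1.05 to -0.59 overlapped. Tyms, thymidylate synthase, had a DCA mean of 41.1% of DMSO.

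Uhrf1 and Dnmt1 copy DNA methylation onto the new strand: Uhrf1 recognises half-methylated DNA and Dnmt1 is the methyltransferase. Both fell, with a median difference of -1.42. Uhrf1 was at 34.3, 53.7 and 54.9 TPM in DMSO, 34.7, 37.2 and 34.0 in CA, 50.1, 44.5 and 29.8 in CDCA and 16.5, 15.2 and 15.9 in DCA. Dnmt1 was at 27.7, 37.3 and 46.2 TPM in DMSO, 28.4, 27.5 and 25.1 in CA, 38.5, 34.3 and 21.4 in CDCA and 14.1, 12.8 and 14.1 in DCA. The DCA libraries were the lowest in both genes, and the CA libraries overlapped DMSO replicate 1. Uhrf1 fell by 1.50 and Dnmt1 by 1.35 (limma adjusted p = 0.000134 and 0.000325).

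The G1/S regulators in the set were the E-type cyclins Ccne1 and Ccne2, which activate Cdk2, and the transcription factor E2f1. Their median difference was -1.25. E2f1 was the most abundant and differed least, at 6.69, 9.50 and 11.8 TPM in DMSO, 6.41, 7.75 and 6.71 in CA, 9.44, 8.56 and 5.47 in CDCA and 4.29, 4.42 and 4.66 in DCA. Ccne1 differed most, at 5.70, 7.14 and 9.42 TPM in DMSO, 5.19, 5.19 and 4.01 in CA, 8.07, 6.60 and 3.81 in CDCA and 2.52, 1.82 and 1.87 in DCA. CDCA replicate 3 was below every CA library in both genes, and the DCA libraries overlapped no other. E2f1 fell by 0.89 and Ccne1 by 1.44 (limma adjusted p = 0.00324 and 0.000398). Ccne2 had a DCA mean of 34.0% of DMSO.

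Under CA against DMSO, 0 of the 41 genes passed the limma test, in which 0.00837% of tested genes were called lower, and the smallest limma adjusted p was 0.0958, for Orc6. An unadjusted p under 0.05 was reached by 18 of the 41 and, in either direction, by 1763 of the 11952 tested genes. The difference was below 0 in 40 of 41 and in 43.7% of tested genes, with a median of -0.39 against 0.03 over all tested genes. Pold2, at 0.06 (95% CI -0.24 to 0.36), was the exception. In 20 of the 41 the 3 CA libraries were all below the 3 DMSO libraries, which held for 5.21% of tested genes. The lower edge of the intervals reached -1.17 (Gins1), so a fall of that size in a single gene lies within what these libraries allow. The count was 1 without DMSO replicate 1 alone, where 0.176% of tested genes were called lower. It was 27 when CDCA replicate 3 was left out with that library, where 2.91% of tested genes were called. Both libraries were picked for being the lowest of their groups in these genes, so the 27 is no independent check of a fall under CA. The median difference was -0.54 without DMSO replicate 1 and -0.27 without DMSO replicate 3.

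Under CDCA against DMSO, 0 of the 41 genes passed as well, where 0.0837% of tested genes were called lower, and the smallest limma adjusted p was 0.243, for Orc6. An unadjusted p under 0.05 was reached by 3 of the 41 genes (Orc6, Mcm6 and Prim2) and, in either direction, by 1168 of the 11952 tested genes. The difference was below 0 in 40 of 41 and in 44.7% of tested genes, with a median of -0.23 against 0.02 over all tested genes. Orc6 was the 1 gene whose CDCA libraries were all below DMSO, which held for 3.03% of tested genes. The median rested on single libraries: it was -0.04 without CDCA replicate 3, -0.41 without CDCA replicate 1, -0.41 without DMSO replicate 1 and -0.10 without DMSO replicate 3. It was -0.19 when neither CDCA replicate 3 nor DMSO replicate 1 was used, and 0 genes were called.

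**Figure D3:**
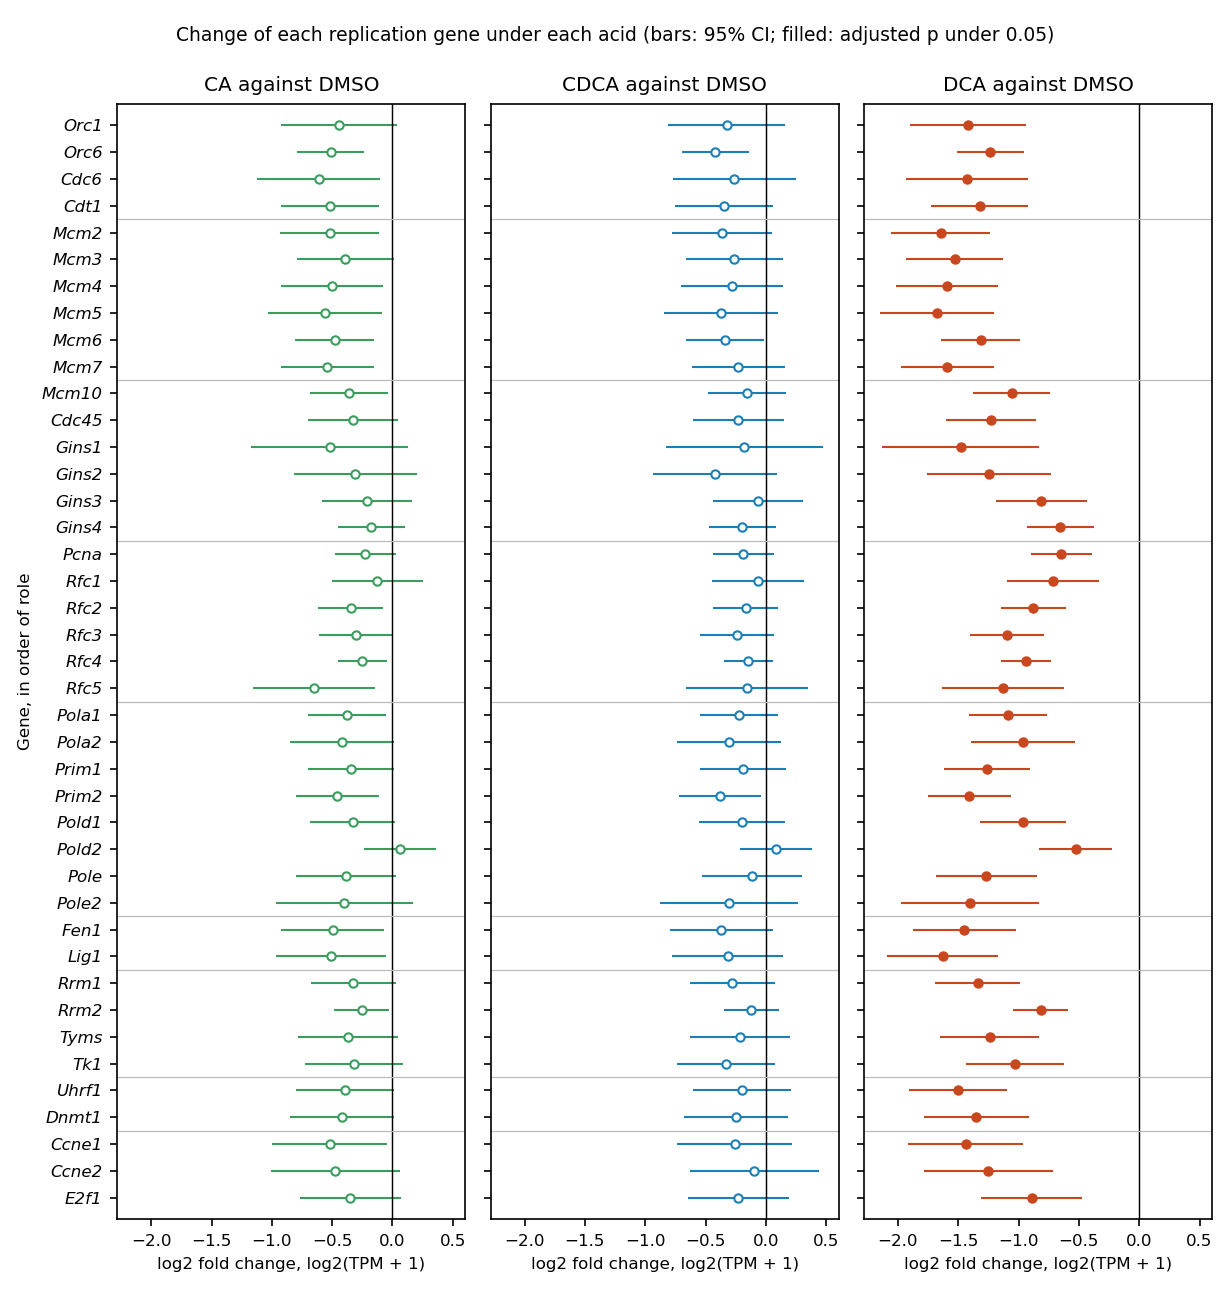
Difference of each of the 41 genes (y axis, in order of role) from DMSO under CA, CDCA and DCA, as log2 fold change on the log2(TPM + 1) scale (x axis) with its 95% confidence interval, filled where the limma adjusted p was under 0.05. All 41 points are filled and below 0 under DCA (-1.68 to -0.53), and none is filled under CA or CDCA.

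The acids were also compared with each other. All comparisons with DMSO share its 3 libraries, and the 6 comparisons made in all share libraries as well. DCA, which lacks a hydroxyl group that CA has, gave lower levels than CA in 37 of the 41 genes, where 8.94% of tested genes were called lower. The median difference was -0.84, and in 40 of 41 genes the DCA libraries were all below the CA libraries, against 28.7% of tested genes. Mcm5 differed by -1.11 (95% CI -1.59 to -0.64, limma adjusted p = 0.00797), Lig1 by -1.12 and Pcna by -0.42 (limma adjusted p = 0.0066 and 0.0317). The 4 genes that missed the threshold were Rfc5 at -0.48 (95% CI -0.98 to 0.03), Pola2 at -0.54, Ccne2 at -0.78 and E2f1 at -0.54 (limma adjusted p = 0.187, 0.0884, 0.0524 and 0.0781). The count of called genes was 21 without CA replicate 2, 21 without DCA replicate 1 and 23 without DCA replicate 2. In those fits 3.25%, 3.27% and 3.11% of tested genes were called lower. The count was 40 with CDCA replicate 3 and DMSO replicate 1 left out, where 14.6% of tested genes were called.

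DCA and CDCA carry the same number of hydroxyl groups at different positions, and DCA gave lower levels in all 41 genes, where 15.0% of tested genes were called lower. The median difference was -1.0, and the libraries did not overlap in 41 of 41 genes, against 27.1% of tested genes. Mcm7 differed by -1.36 (95% CI -1.75 to -0.98, limma adjusted p = 0.00065). Pcna differed by -0.46 (95% CI -0.71 to -0.21, limma adjusted p = 0.0116). Without CDCA replicate 3 and DMSO replicate 1, 41 genes were called, where 21.9% of tested genes were, and the median was -1.18.

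CDCA and CA were not told apart in these genes. The limma test called 0 of 41, where 0.00837% of tested genes were called higher in CDCA. An unadjusted p under 0.05 was reached by 0 of 41, against 861 of the 11952 tested genes. The libraries overlapped in all 41, and 4.19% of tested genes had CDCA libraries all above CA. The median difference of CDCA from CA was 0.14, with single genes from -0.11 (Gins2) to 0.50 (Rfc5). All 41 intervals covered 0 and together reached from -0.62 to 1.00, so differences of those sizes in single genes remain possible. The median was 0.32 without CDCA replicate 3 and 0.01 without CDCA replicate 1. With CDCA replicate 3 and DMSO replicate 1 left out, 4 genes were called higher in CDCA (Uhrf1, Mcm4, Mcm7 and Lig1), where 0.812% of tested genes were called. Without CDCA replicate 3 alone, 0 genes of the set were called, where 34 of all tested genes were called in either direction. Both libraries were picked for being low in these genes, so the 4 calls are no independent check of a difference. The group means ran in the order DMSO, CDCA, CA, DCA in 38 of the 41 genes. In 2 genes CA and CDCA changed places, and Pold2 alone had both above DMSO.

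Where the set holds only some subunits of a complex, the other subunits were examined in the same fit. The origin recognition complex was uneven under DCA. Orc1 and Orc6 fell by 1.42 and 1.23. Orc2, Orc3, Orc4 and Orc5 were at -0.55, -0.12, -0.23 and -0.17 and did not pass (limma adjusted p = 0.0842, 0.346, 0.147 and 0.115), but all 4 passed once mitochondrial and rRNA rows were left out and the rest rescaled, at -0.69, -0.26, -0.37 and -0.31. Orc2 also passed when DCA and DMSO alone were fitted and without CDCA replicate 3 and DMSO replicate 1 (limma adjusted p = 0.0196 and 0.0365). The rescaling without mitochondrial and rRNA rows moved the median of all tested genes from -0.02 to -0.15, and 33.45% of tested genes were then called lower. Orc4 was at 41.0, 37.5 and 43.3 TPM in DMSO and 32.8, 39.2 and 32.0 TPM in DCA, groups that overlapped. The interval of Orc1, -1.90 to -0.94, lay wholly below those of Orc3, Orc4 and Orc5, which began at -0.32, -0.48 and -0.35.

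Polymerase delta was the complex in which a subunit rose. Pold4, its smallest subunit, was at 34.8, 29.7 and 26.8 TPM in DMSO, 38.9, 35.0 and 42.3 in CA, 29.3, 34.2 and 38.6 in CDCA and 51.7, 56.6 and 51.4 in DCA. All DCA libraries were above all others, where Pold1 and Pold2 were lowest in DCA. Pold4 rose by 0.79 (95% CI 0.53 to 1.05, limma adjusted p = 0.000363), and kept its direction and its call under each alternative processing that was run. Pold3, the third accessory subunit, fell by 0.62 (limma adjusted p = 0.0298), and lost the call without DCA replicate 2 or 3, without DMSO replicate 2 or 3, with no filter and with the replicate number as a block (limma adjusted p of 0.0516 to 0.122). In polymerase epsilon, Pole and Pole2 fell by 1.27 and 1.40 and the histone-fold subunit Pole3 by 0.55, while Pole4 was at -0.23 (limma adjusted p = 0.0718) and passed in 3 alternatives, with median-ratio scaling, after removal of mitochondrial and rRNA rows and without DMSO replicate 2 (limma adjusted p = 0.0266, 0.00182 and 0.0343). Replication protein A, which coats single-stranded DNA, fell in all subunits: Rpa1 by 1.10, Rpa2 by 1.30 and Rpa3 by 0.70. Rrm2b, the small reductase subunit that is not tied to S phase, was at 0.26 (95% CI -0.15 to 0.67, limma adjusted p = 0.296) where Rrm1 and Rrm2 fell.

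**Figure D4:**
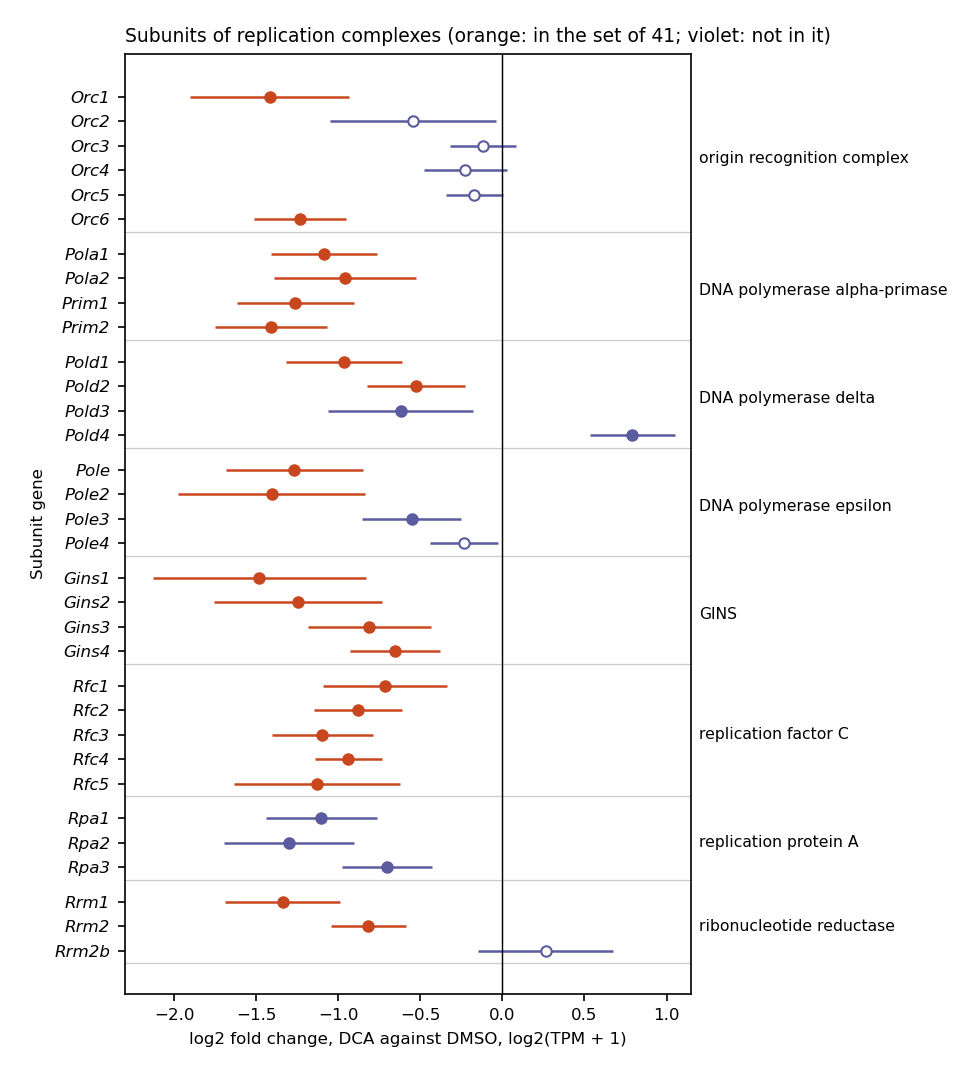
Differences between DCA and DMSO for the subunit genes of replication complexes (y axis), as log2 fold change on the log2(TPM + 1) scale (x axis) with 95% confidence intervals, filled where the limma adjusted p was under 0.05. Orc2 to Orc5, Pole4 and Rrm2b are open, and Pold4 is the only filled point above 0.

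Among other replication fork and origin genes, 29 of 38 fell and 1 rose under DCA, where 19.2% of tested genes were called lower and 18.8% higher, with a median of -0.67. Without CDCA replicate 3 and DMSO replicate 1 the count of those that fell was 33 in this list, 13 among the genes of nucleotide and histone supply and 13 among those of repair. The topoisomerase Top2a fell from 135 ± 20.7 to 61.5 ± 6.89 TPM (SD, n = 3), and Topbp1, an activator of origin firing and of the checkpoint kinase ATR, by 1.11. Rpa2 and Rpa1, given above, had the next smallest p-values, and Pold4 was the gene that rose. Of 15 other genes of nucleotide and histone supply 13 fell and 0 rose, with a median of -1.04. Dtymk and Dut, which make thymidine nucleotides and remove dUTP, fell by 1.11 and 1.10, and the histone chaperones Asf1b and Chaf1a by 1.49 and 1.62. Chaf1a was at 10.7, 14.5 and 17.6 TPM in DMSO and 4.10, 3.67 and 3.89 TPM in DCA, groups that did not overlap. Of 15 tested genes of replication-linked repair 11 fell and 0 rose, with a median of -0.84, and Pms2, the sixteenth on the list, was below the filter. The checkpoint kinase Chek1 fell by 1.17 and the helicase Blm by 1.11. Under CA and under CDCA, 0 genes of these lists and of the G1/S list passed the limma test against DMSO with all 12 libraries in the fit. Without CDCA replicate 3 and DMSO replicate 1 these lists were not counted for CA and CDCA.

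Other G1/S and E2F-RB genes moved both ways under DCA: 9 of 17 fell and 3 rose, with a median of -0.48. The 3 that rose are a share near the 18.8% of all tested genes called higher, while 19.2% were called lower. Without CDCA replicate 3 and DMSO replicate 1, 9 fell and 3 rose, with E2f2, named here after its values were seen, in place of Rbl2. Cyclin A2 (Ccna2) fell by 0.95 and Skp2, which marks cell cycle inhibitors for breakdown, by 0.72 (limma adjusted p = 0.000103 and 0.000517). Rb1, the retinoblastoma protein that holds E2F in check, was at 22.4, 15.1 and 16.1 TPM in DMSO, 24.9, 19.9 and 27.5 in CA, 20.7, 19.2 and 24.4 in CDCA and 35.1, 33.5 and 31.6 in DCA. The DCA libraries were above all others, and the CA and CDCA libraries overlapped DMSO replicate 1. Rb1 rose by 0.89 (95% CI 0.56 to 1.21, limma adjusted p = 0.00072). Cdc25a, the phosphatase that activates Cdk2, was at 17.9, 19.0 and 24.1 TPM in DMSO and 31.4, 31.6 and 30.5 TPM in DCA, and rose by 0.61 (limma adjusted p = 0.000747). Rbl2, an RB relative found in resting cells, rose by 0.35 (limma adjusted p = 0.0472), a call that was lost without any 1 DCA library and without DMSO replicate 1 or 2, with no filter, after removal of mitochondrial and rRNA rows, with the replicate number as a block, in a fit of the 6 libraries compared, and without CDCA replicate 3 and DMSO replicate 1 together (limma adjusted p of 0.0621 to 0.188).

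Of the cell type markers, those of enterocytes rose under DCA, and the called ones of the dividing, stem, Paneth, enteroendocrine, goblet and tuft lists fell. Their counts stand against 19.2% of tested genes called lower and 18.8% called higher under DCA. Of 5 dividing cell markers, Top2a among them as in the fork list, 5 fell under DCA, and their summed level was 409 to 549 TPM in DMSO, 373 to 413 in CA, 366 to 503 in CDCA and 231 to 249 in DCA. Of 6 stem cell markers 6 fell, with sums of 356 to 795 TPM in DMSO, 245 to 356 in CA, 214 to 547 in CDCA and 96.3 to 112 in DCA. Of 6 enterocyte markers 6 rose, with sums of 985 to 1747 TPM in DMSO, 1849 to 3020 in CA, 1142 to 1889 in CDCA and 4016 to 5580 in DCA. Of 5 Paneth cell markers 5 fell, with sums of 3772 to 6539 TPM in DMSO, 4287 to 4423 in CA, 4030 to 5807 in CDCA and 2752 to 3152 in DCA. Of 6 enteroendocrine markers 4 fell, with sums of 2156 to 2761 TPM in DMSO, 2283 to 2659 in CA, 1725 to 1950 in CDCA and 1329 to 1507 in DCA. Of 5 goblet cell markers 3 fell, with sums of 2153 to 2896 TPM in DMSO, 2776 to 3216 in CA, 1864 to 2347 in CDCA and 1921 to 2061 in DCA. Of 4 tuft cell markers 3 fell, with sums of 7.09 to 13.6 TPM in DMSO, 8.33 to 9.77 in CA, 7.14 to 9.53 in CDCA and 5.06 to 7.44 in DCA. The tuft sums of DMSO and DCA overlapped. The DCA libraries were thus the lowest in the dividing, stem, Paneth and enteroendocrine sums and the highest in the enterocyte sum. In a count chosen after seeing the data, without CDCA replicate 3 and DMSO replicate 1, the tuft list had 4 that fell and the other 6 lists had the same counts. No marker of these 7 lists was at 0 in every library. DMSO replicate 1 and CDCA replicate 3 were the lowest of their groups in the dividing and stem cell sums as they were in the replication genes. The share of TPM in mitochondrial rows was 17.2% ± 2.74 in DMSO, 15.9% ± 2.02 in CDCA, 14.0% ± 0.389 in CA and 11.8% ± 0.814 in DCA (SD, n = 3). These group means had the same order as those of the replication genes. Within DMSO, CDCA and CA, the library highest in the replication genes had the lowest mitochondrial share, as in DMSO replicate 3 (1641 TPM and 14.6%). Within DCA the 2 values rose together. The part of these markers and of the mitochondrial share in the differences was not tested. With mitochondrial and rRNA rows left out, 41 of 41 genes were still called lower under DCA, where 33.45% of tested genes were called lower.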

How the data were processed

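RNA was measured in 12 libraries, 3 each for CA, CDCA, DCA and DMSO, grouped by their titles. Per the labels' protocols, poly(A) RNA was selected and strands were marked with dUTP. The authors deposited 1 table of TPM values per gene symbol for each library. The unit was read from the values themselves: they have decimals, and the library totals are close to each other. All totals are below the full sum that TPM has by definition, so if the unit is right, part of each library is not in these values. The mean total was 904423 in DMSO and 934488 in DCA, and what is missing is not known. The submitters' processing notes name Salmon 1.8.0 and GRCm39. How transcripts were annotated and summed to genes, and whether strand was used, is not given in the sources used here, so reads shared with overlapping genes cannot be told apart. Because TPM is a share, a change in abundant RNA shifts every other value.

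Rows were kept where 3 or more libraries reached 1 TPM (11952, all 41 genes of the set among them). A model of 4 group means over all 12 libraries was fitted to log2(TPM + 1) with limma 3.58.1 in R 4.3.3, with trend and robust moderation. Tests were two-sided, with Benjamini-Hochberg adjustment over all tested genes within each of 6 comparisons and a threshold of 0.05. Fold changes are on the log2(TPM + 1) scale and understate changes of low genes. The model was tested on simulated data. The genes, the lists and the libraries left out together were chosen with earlier results of these data known. Values in every library are given, in each of 9 roles, for the gene with the highest mean TPM and those with the largest and smallest DCA difference. Of other lists, up to 4 genes with the smallest p under DCA and every gene that rose are named. Some genes that this rule picks are not reported here. Subunits of complexes in the set were added for completeness. Promoter sequences are RefSeq's for GRCm38.p6, another build than that of the files, and served for letters and their positions only. Alternatives were no filter, median-ratio scaling, mitochondrial and rRNA rows left out, a fit of the 6 libraries compared, a block for the replicate number, a pseudocount of 0.1, limma without trend and robust moderation, and libraries left out.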

Additional observations from a re-analysis of the deposited data

How the results depend on the processing

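The 41 genes kept their lower call under DCA against DMSO in every alternative run, with medians of -1.42 to -1.12. Of tested genes, 11.54% to 33.45% were called lower in those runs. Against CDCA, DCA gave 34 to 41 called genes when 1 library was left out, where 7.69% to 19.05% of tested genes were called lower. Against CA the count was 21 to 31 over the libraries left out in turn (21 without CA replicate 2, 21 without DCA replicate 1 and 23 without DCA replicate 2) and 27 with no filter. The shares of tested genes called lower were 3.11% to 5.06% with libraries left out and 3.80% with no filter. For CA against DMSO, 0 to 1 genes were called when 1 library was left out (1 without DMSO replicate 1, where 0.176% of tested genes were called lower). Without CDCA replicate 3 and DMSO replicate 1 the count was 27, where 2.91% of tested genes were called lower. In that setting CDCA against CA gave 4 called higher, where 0.812% of tested genes were. Both libraries were picked for being low in these genes, and fewer samples entered these fits. CDCA replicate 3 belongs to neither CA nor DMSO, and without DMSO replicate 1 the median was -0.54 with or without it. For CA against DMSO its removal thus changed only the spread pooled over the groups. For CDCA against CA, 0 genes of the set were called without CDCA replicate 3 alone. With DMSO replicate 1 left out as well, the median stayed at 0.32, and that library belongs to neither group. Leaving it out thus changed only the pooled spread. The cause of the difference in the 4 genes was not tested. After removal of mitochondrial and rRNA rows and rescaling, the summed level of the 41 genes was 1895 TPM in DMSO, 1571 in CDCA, 1380 in CA and 775 in DCA, by the larger share each row then has, and with median-ratio scaling it was 639 TPM in DCA. No direction of a called gene of the set reversed. Over all comparisons, 57 values of single genes changed sign; none was called, and after the change the largest was 0.24 from 0.

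Replicates with the same number did not visibly deviate together: their correlations were -0.38 to 0.11, with 3 of 18 over 0.1. Replicates with different numbers ran from -0.25 to 0.43, the highest being CDCA replicate 3 with DMSO replicate 1. Deviations within groups of 3 are tied to each other, so these values cannot decide whether libraries were paired. With the replicate number as a block, the genes called lower under DCA were 41 against DMSO, 30 against CA and 40 against CDCA. The shares of tested genes called lower were 16.8%, 6.13% and 12.3%. Under CA or CDCA against DMSO 0 of the set were called, where 0.00837% and 0.0586% of tested genes were called lower. The read depth of the libraries is unknown, so it cannot be said how far depth limits low genes such as Orc1 and Gins3.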
